A study of Homo sapiens with 6 samples.

Results

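Chromatin accessibility was examined at 10 marker genes of naive human pluripotency, namely KLF17, KLF4, KLF5, DPPA3, DPPA5, TFCP2L1, DNMT3L, ARGFX, TFAP2C and SUSD2. All 10 were found among the 20033 protein-coding genes of the RefSeq gene table for GRCh38.p14. For each gene, every summit inside it or within 20 kb of either end was taken, which gave 141 of the 356720 summits in the series, or 51 of its 123131 loci. A summit is the point of strongest signal in a peak of ATAC-seq, an assay in which the Tn5 transposase cuts DNA that is not covered by nucleosomes. A locus is a group of summits of different libraries within 250 bp of the best-scored summit of the group.

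The series holds 6 ATAC-seq libraries of the human embryonic stem cell line H1, grown in mTeSR1 on Matrigel. All cells received a lentiviral short hairpin RNA and were selected with puromycin. There were 2 libraries of cells with the hairpin shHNRNPU #1, 2 with shHNRNPU #2 and 2 with the control hairpin shLUC, which targets luciferase, a gene that the cells do not have. HNRNPU encodes an abundant nuclear protein that binds RNA. The labels do not say whether repeats are separate cultures, so the spread between repeats may be technical. Lists held 52168 to 63519 summits. The lists carry no read counts, so sequencing depth cannot be given, and they hold no measure of HNRNPU RNA or protein. A gene end without a summit is called closed below, which means only that no peak was called there. In bulk libraries such as these, fewer cells with an open site and weaker opening in each cell cannot be told apart.

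H1 cells in mTeSR1 are in the primed state, which resembles the epiblast after implantation. Naive cells resemble the epiblast before implantation. They are held by a partly different set of transcription factors, and they have low DNA methylation. The genes studied here fall into 3 kinds. KLF17, KLF4, KLF5, TFCP2L1, TFAP2C and ARGFX encode DNA-binding factors. DPPA3, DPPA5 and DNMT3L encode proteins of the early embryo and germ line that act on DNA methylation or bind RNA. SUSD2 encodes a surface protein that is used to sort naive cells. The question for these genes was which of them were accessible in primed cells, and whether a hairpin against HNRNPU changed that.

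The starts of 6 of the 10 genes were given by the RefSeq promoter table, which lists 7 starts for them, since KLF5 has 2. For DNMT3L, ARGFX, TFAP2C and SUSD2 the table had no entry, and both ends of the gene were examined. The 250 bases before each start are printed here 5′ to 3′ on the strand of the gene, from RefSeq GRCh38.p14, with each CpG dinucleotide in capitals. They are shown because the starts fell into open and closed ones, and because they differ widely in CpG content. The first 3 lines are starts with a summit within 2000 bp in all 6 libraries.
KLF4, chr9:107489770-107490019, minus strand: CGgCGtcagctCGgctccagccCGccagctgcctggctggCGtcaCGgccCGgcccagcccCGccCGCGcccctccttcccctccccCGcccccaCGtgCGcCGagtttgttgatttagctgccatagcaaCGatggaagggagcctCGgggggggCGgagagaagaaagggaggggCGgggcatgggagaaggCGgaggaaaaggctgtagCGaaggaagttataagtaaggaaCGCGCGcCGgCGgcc
KLF5 downstream start, chr13:73058755-73059004, plus strand: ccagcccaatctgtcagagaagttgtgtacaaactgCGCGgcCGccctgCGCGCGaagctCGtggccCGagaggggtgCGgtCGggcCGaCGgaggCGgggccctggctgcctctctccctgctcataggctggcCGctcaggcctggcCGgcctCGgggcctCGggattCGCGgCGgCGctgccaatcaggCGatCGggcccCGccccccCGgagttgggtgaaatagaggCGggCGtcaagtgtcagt
TFCP2L1, chr2:121285203-121285452, minus strand: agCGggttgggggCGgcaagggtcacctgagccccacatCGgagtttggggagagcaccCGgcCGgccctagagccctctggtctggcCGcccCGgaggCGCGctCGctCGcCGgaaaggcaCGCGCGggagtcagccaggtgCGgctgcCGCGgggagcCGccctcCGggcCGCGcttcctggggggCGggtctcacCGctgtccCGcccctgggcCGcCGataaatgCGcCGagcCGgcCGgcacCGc
The next 2 are starts with a summit within 2000 bp in none of the 6 libraries.
DPPA5, chr6:73354277-73354526, minus strand: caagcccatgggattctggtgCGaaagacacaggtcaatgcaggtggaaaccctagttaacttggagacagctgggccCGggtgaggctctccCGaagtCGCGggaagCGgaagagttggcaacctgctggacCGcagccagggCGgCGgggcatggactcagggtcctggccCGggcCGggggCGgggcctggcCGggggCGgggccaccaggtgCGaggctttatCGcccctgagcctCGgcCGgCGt
KLF5 upstream start, chr13:73054726-73054975, plus strand: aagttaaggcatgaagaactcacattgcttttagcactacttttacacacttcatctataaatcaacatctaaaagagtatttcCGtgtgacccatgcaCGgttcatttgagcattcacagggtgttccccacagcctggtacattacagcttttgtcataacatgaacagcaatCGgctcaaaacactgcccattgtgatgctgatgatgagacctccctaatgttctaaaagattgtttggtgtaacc
The last 2 are starts with a summit within 2000 bp in 1 library.
KLF17, chr1:44118571-44118820, plus strand: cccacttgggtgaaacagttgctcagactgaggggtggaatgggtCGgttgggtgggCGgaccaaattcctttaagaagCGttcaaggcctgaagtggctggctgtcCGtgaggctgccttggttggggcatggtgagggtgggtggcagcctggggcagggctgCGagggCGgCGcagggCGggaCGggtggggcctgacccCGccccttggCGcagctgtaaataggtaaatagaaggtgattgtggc
DPPA3, chr12:7711183-7711432, plus strand: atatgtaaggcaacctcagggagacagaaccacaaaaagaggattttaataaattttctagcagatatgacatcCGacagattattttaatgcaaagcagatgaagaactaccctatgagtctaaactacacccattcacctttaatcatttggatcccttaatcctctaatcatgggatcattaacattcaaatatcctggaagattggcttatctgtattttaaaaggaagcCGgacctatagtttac

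The genes divided into open, partly open and closed ones. A summit lay within 2000 bp of a start, or of an end where no start was listed, in all 6 libraries for 4 genes, KLF4, KLF5, TFCP2L1 and TFAP2C. No library had one at DPPA5 or ARGFX. KLF17 and DPPA3 each had one in 1 library, DNMT3L in 4 libraries and SUSD2 in 5. Among protein-coding genes with a listed start, 71.3% were open in all 6 libraries and 19.8% were closed in all 6. Among genes without one, an end was open in all 6 for 60.4% and both ends were closed for 25.7%. The 4 of 10 markers open throughout lie below both of these shares, and no test of that difference was made. Of the 20 gene ends in the gene table, 11 were closed in all 6 libraries, beside 49.8% of the ends of all protein-coding genes, and 4 were open in all 6, beside 37.8%. The closed ends were both ends of KLF17, DPPA5 and ARGFX, the lower-coordinate ends of KLF4, KLF5, TFCP2L1 and DNMT3L, and the higher-coordinate end of TFAP2C. These 11 ends cannot show a difference between shHNRNPU and shLUC libraries, since they were picked for having no summit in any library.

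**Figure D1:**
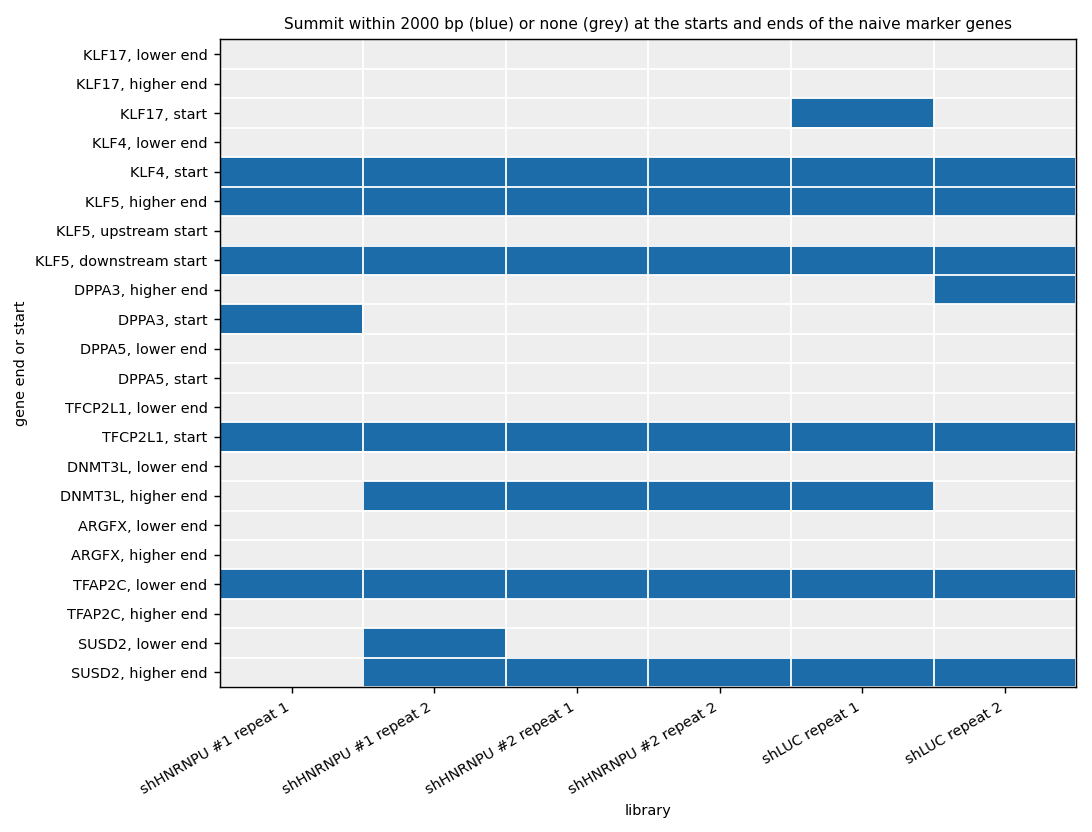
Each row is a start listed in the RefSeq promoter table or, at positions other than those, the lower- or higher-coordinate end of a naive marker gene, and each column is a library. Blue cells have a summit within 2000 bp and grey cells have none. The rows that are blue throughout belong to KLF4, KLF5, TFCP2L1 and TFAP2C, while both rows of DPPA5 and both rows of ARGFX are grey throughout.

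The starts open in every library were rich in CpG, and the others varied. The 3 starts open in every library had 25 (KLF4), 27 (KLF5 downstream) and 32 (TFCP2L1) CpG dinucleotides in the 250 bases before them. The upstream start of KLF5 had 3 and DPPA3 had 2. Over 22198 promoters of protein-coding genes, the median was 21 where all 6 libraries had a summit and 3 where none had. DPPA5 departed from this, with 19 CpG dinucleotides and a GC content of 68.8%, and yet no summit within 2000 bp in any library. Among the 2919 promoters with 15 to 19 CpG dinucleotides, 4.73% were closed in all 6 libraries and 88.0% were open in all 6. KLF17 had 11, and its only summit within 2000 bp of the listed start lay 964 bp away in shLUC repeat 1, at percentile 10.9. Among promoters with 10 to 14, 12.6% were closed throughout, 10.8% were open in some libraries, as KLF17 was, and 76.6% were open throughout. DPPA3 and the upstream KLF5 start belong to a range, 2 to 4 CpG dinucleotides, in which 61.1% of promoters were closed throughout. A further 21.2% of that range were open in some libraries, as DPPA3 was. DPPA5 and KLF17 were thus without regular peaks at CpG counts at which most promoters were open. DPPA3 and the upstream KLF5 start also lacked regular peaks, but at CpG counts at which most promoters were closed throughout. DNA methylation was not measured.

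**Figure D2:**
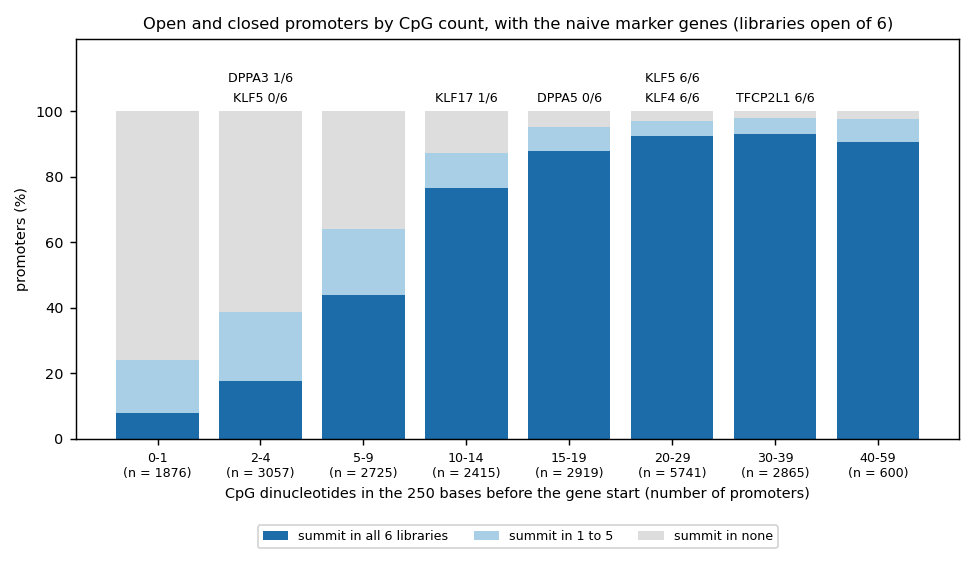
Bars give, for promoters of protein-coding genes grouped by the number of CpG dinucleotides in the 250 bases before the start (horizontal axis, number of promoters in brackets), the percentage with a summit within 2000 bp in all 6 libraries, in 1 to 5 and in none. Names above the bars place the starts of the naive marker genes, with the number of libraries of 6 that had a summit. DPPA5 stands with no library above a bar of which 88.0% is open in all 6.

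Short motifs were counted on both strands of the same 250 bases. The GC box GGGCGG, to which SP and KLF factors bind, was present before the starts of KLF17 (4 matches), KLF4 (4), the downstream start of KLF5 (2), DPPA5 (3) and TFCP2L1 (5), and in 53.7% of all promoters. It was absent before the upstream start of KLF5 and before DPPA3. The KLF site CCACCC was found 5 times at KLF17 and at no other of the 7 starts, beside 34.8% of promoters with at least 1. The TFAP2 site GCCNNNGGC, which is its own reverse complement, was found at KLF17 (1), KLF4 (1) and DPPA5 (2), beside 23.4%. The CCAAT box CCAAT was found at the downstream KLF5 start (2) and at DPPA3 (1), beside 32.7%. The TATA box TATAAA was found at the upstream KLF5 start (1), beside 9.01%, and the octamer ATGCAAAT of POU factors at none of the 7, beside 1.59%. A match here is a run of letters, not a bound site.

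The number of summits per gene did not separate the groups. Together the 10 windows held 22 and 27 summits in the shHNRNPU #1 libraries, 25 and 21 in the shHNRNPU #2 libraries, and 25 and 21 in the shLUC libraries. The 4 shHNRNPU libraries averaged 23.8 ± 2.75 summits (SD, n = 4) and the control libraries 23 ± 2.83 (SD, n = 2), a difference of 0.75 summits that is smaller than either spread. Summit counts of the 4 shHNRNPU libraries lay all above or all below both shLUC libraries at 0 of the 10 genes, beside 3.31% of all 20033 genes for higher and 3.67% for lower counts. In the two-sided exact permutation test of the counts over the 15 ways to choose 2 control libraries, the lowest p among the 10 genes was 0.533, and 0 of all genes had an unadjusted p under 0.05. After Benjamini-Hochberg adjustment over all genes no p was below 1. With 4 libraries against 2 this test cannot give a two-sided p below 0.133. Against a single control library, separated counts are more frequent over all genes. Without shLUC repeat 1, KLF17 and DPPA5 had higher counts in all 4 shHNRNPU libraries, beside 8.43% of all genes, and 0 markers had lower counts, beside 11.3%. Without shLUC repeat 2, SUSD2 had higher counts, beside 9.34%, and KLF17 and TFAP2C had lower counts, beside 11.3%.

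No locus in the windows was lost or gained. A lost locus is one with a summit in both shLUC libraries and in none of the 4 shHNRNPU libraries, and a gained locus is the reverse. The windows had 0 of either among 51 loci, beside 1.93% of all loci lost and 0.88% gained. Of the 51, 12 were called in all 6 libraries (23.5%, beside 23.3% of the loci within 20 kb of any protein-coding gene), 3 in 5 libraries, 14 in 2 to 4, and 22 in a single library (43.1%, beside 35.6% of the same loci). With a single control library more loci meet the definition. Without shLUC repeat 1, 4 of 46 were lost, beside 10.4% of all loci, and without shLUC repeat 2, 4 of 46, beside 10.6%. In the KLF17 window the locus at 44150394 counted as gained without shHNRNPU #1 repeat 1, as 1 of 49, beside 1.44% of all loci. It was weak, at percentiles of 0.11 to 9.69, and the nearest gene end, 8763 bp away, was that of KLF18. The locus at 44031523, 61 bp from an end of the neighbour SLC6A9, counted as gained without shLUC repeat 1, as 1 of 46, beside 2.52%.

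**Figure D3:**
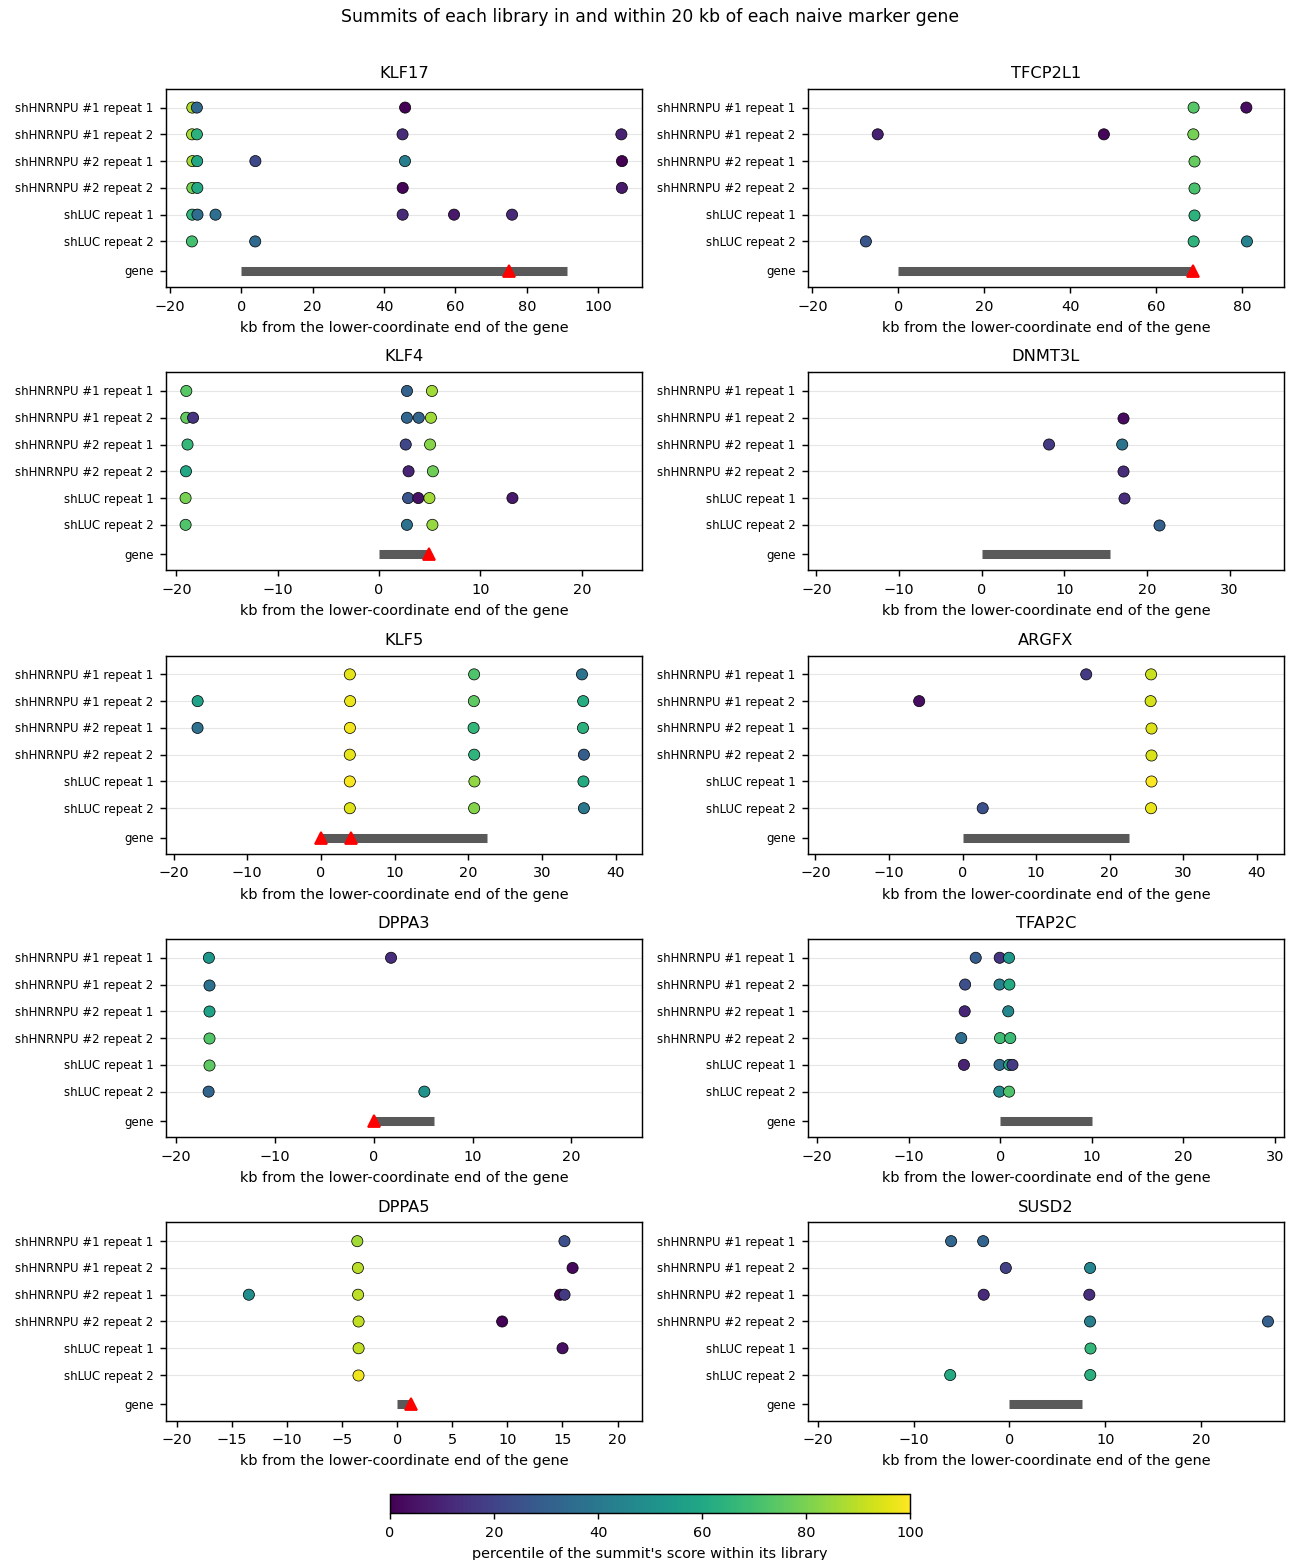
Each panel is the window of one naive marker gene, with distance from its lower-coordinate end in kb on the horizontal axis and the 6 libraries in rows. Points are summits, coloured by the percentile of their score within their library, the grey bar is the gene and red triangles are starts listed in the RefSeq promoter table. KLF4 and KLF5 each show 3 columns of points that recur in all 6 libraries, and DNMT3L and SUSD2 show none.

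Strength was compared next, as the percentile of a summit's score among all summits of its library, where 100 is the strongest. The score is the −log10 of the q-value of the peak, which depends on depth, and the percentile removes a difference in scale between libraries. At the 12 loci called in every library, the percentiles were fitted with limma together with all 25519 such loci. None of the 12 passed an adjusted p of 0.05, nor did any other locus, and the lowest adjusted p was 0.224 among the 12 and 0.0944 over all loci. At an unadjusted p under 0.05 there were 2 of the 12, beside 14.3% of all loci. The difference of shHNRNPU minus shLUC had a median of -3.26 points over the 12, beside -0.29 points over all loci. The windows of KLF4 and KLF5 gave 3 of the 12 loci each, and no test of the 12 together was made. The groups did not overlap at 4 of the 12. In 2 cases all 4 shHNRNPU libraries were higher, beside 10.9% of all loci, and in 2 cases lower, beside 13.9%. These counts depend on the control libraries and on the match distance. Without shLUC repeat 1, 4 of 12 were higher, beside 22.4% of all loci, and 5 lower, beside 24.9%. Without shLUC repeat 2, 2 of 13 were higher, beside 24.4%, and 5 lower, beside 26.7%. Without shHNRNPU #1 repeat 1 or #2 repeat 2, 3 were lower, beside 16.8% and 16.5%. At a match distance of 100 bp in place of 250 bp, 4 loci of the windows were called in all libraries. Of the 4 separated loci only that at FBXO40 remained among them, while those in SLC6A9, at TFCP2L1 and at the far end of KLF5 did not. Of the 4 called at 100 bp, 0 were higher, beside 8.68% of all loci, and 1 was lower, beside 17.2%. On log2 scores in place of percentiles, 1.12% of all loci and 0 of the 12 passed an adjusted p of 0.05. The 2 hairpins against HNRNPU differed from each other at 0 of the 12 loci at an unadjusted p under 0.05 (limma), beside 5.11% of all loci, and the lowest adjusted p of that difference was 0.928.

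**Figure D4:**
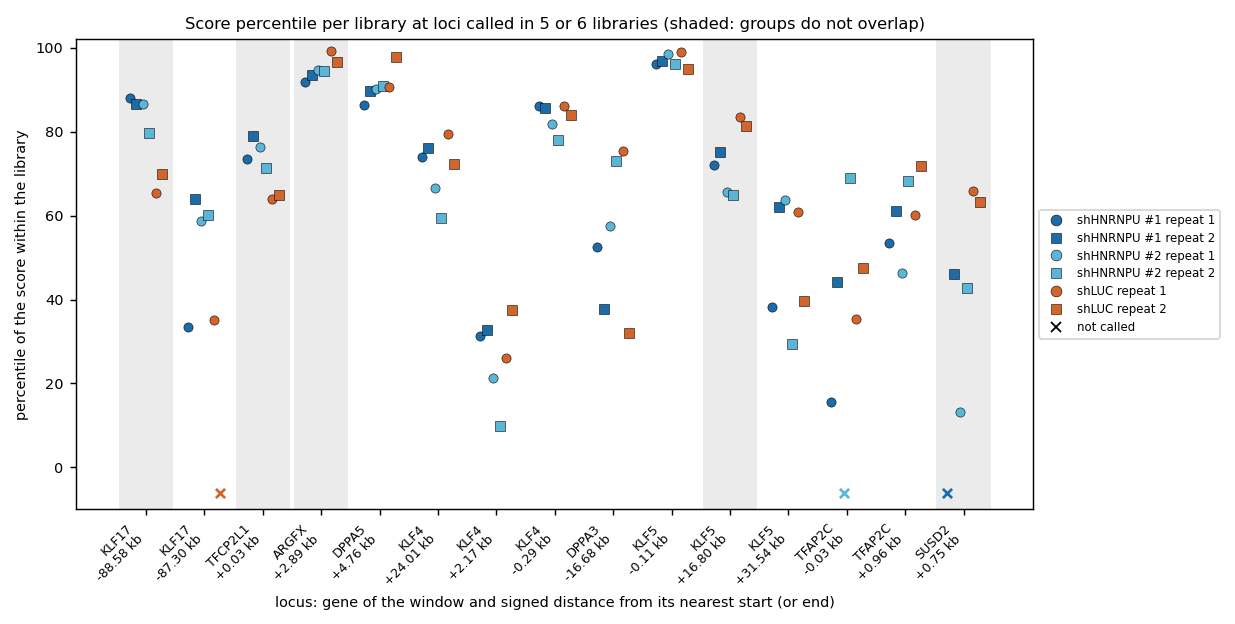
The vertical axis is the percentile of the score within the library at the 15 loci of the windows that were called in 5 or 6 libraries, named by gene and by signed distance from the nearest start or, without a listed start, end. Blue points are shHNRNPU libraries, orange points shLUC libraries, circles repeat 1, squares repeat 2, and crosses a library with no summit. Shading marks the 5 loci at which the groups do not overlap. Higher with shHNRNPU are the first KLF17 locus, which lies in the neighbour SLC6A9, and TFCP2L1. Lower are the ARGFX locus, which lies in the neighbour FBXO40, the KLF5 locus near the far end of the gene, and SUSD2, with a library without a call ranked lowest.

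Among the Krüppel-like factors, KLF4 and KLF5 were open and KLF17 was nearly closed. KLF4, one of the reprogramming factors, spans 107484852 to 107489769 on chromosome 9. Its start had a summit 45 to 388 bp away in every library, at a locus centred at 107490061, 292 bp before the start. The summits of 3 libraries lay within the bases printed for KLF4 and those of the other 3 beyond them. The percentiles there were 86.2, 85.6, 81.7 and 78.0 with shHNRNPU, in the order of hairpin and repeat, and 86.1 and 84.1 with shLUC. The groups overlapped, and the difference was -2.21 points (95% interval -11.3 to 6.83). Within the gene, a weaker locus at 107487595 was called in every library at percentiles of 9.9 to 32.8 with shHNRNPU and 26.2 and 37.6 with shLUC. Another, at 107465762 over the long noncoding RNA gene LINC01509, had 59.5 to 76.2 and 79.5 and 72.4. Neither separated the groups. A further locus, at 107488762 and 1007 bp inside the start, was called only in shHNRNPU #1 repeat 2, at percentile 31.9, and shLUC repeat 1, at 4.56.

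KLF5, a factor of the epiblast and of many epithelia, spans 73054976 to 73077538 on chromosome 13. The strongest locus of its window, at 73058898, lay 107 bp before the downstream start, inside the bases printed above. Its percentiles were 96.1, 96.9, 98.4 and 96.1 with shHNRNPU and 99.0 and 95.0 with shLUC, a difference of -0.13 points (95% interval -2.66 to 2.41), the narrowest interval of the 12 loci. The upstream start had no summit within 2000 bp in any library, and the nearest lay 3921 bp away. A locus near the far end of the gene, at 73075807, had percentiles of 72.0, 75.1, 65.7 and 65.0 with shHNRNPU and 83.6 and 81.4 with shLUC. All 4 shHNRNPU libraries were lower there, with a mean difference of -13.0 points, but the interval of -28.1 to 2.13 points included 0 (limma, adjusted p = 0.413). Beyond the gene, the locus at 73090545 ranged from 29.5 to 63.7 with shHNRNPU and was at 61.0 and 39.6 with shLUC.

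KLF17, the member of the family that is most restricted to the naive state in human cells, is listed from 44043927 to 44135140 on chromosome 1, with its start in the promoter table at 44118821. Both ends were closed in every library. The window held 3, 4, 5 and 4 summits with shHNRNPU and 6 and 2 with shLUC, and those inside the gene were weak, at percentiles of 0.50 to 42.6. The strong loci of the window belong to its neighbour SLC6A9, which encodes a glycine transporter. At 44030243, inside SLC6A9 and 1219 bp from its end, the percentiles were 88.0, 86.6, 86.5 and 79.7 with shHNRNPU and 65.5 and 70.0 with shLUC. This was the largest difference of the 12 loci, 17.5 points (95% interval 5.61 to 29.3), with all 4 shHNRNPU libraries higher. Its unadjusted p was 0.00673 and its adjusted p 0.231 (limma). A second locus, at 44031523 and 61 bp from that end, had 33.4, 64.0, 58.8 and 60.3 with shHNRNPU, 35.2 in shLUC repeat 1 and no call in shLUC repeat 2.

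The other DNA-binding factors were TFCP2L1, TFAP2C and ARGFX. TFCP2L1, a factor of the naive network, spans 121216587 to 121285202 on chromosome 2, and its start was open in every library. The strongest summit of this locus, in shHNRNPU #1 repeat 2, lay 28 bp inside the gene, and those of the 5 other libraries lay before the start, within the bases printed above. Percentiles were 73.5, 79.0, 76.3 and 71.4 with shHNRNPU and 64.1 and 64.8 with shLUC. All 4 shHNRNPU libraries were higher, by 10.6 points on average, with an interval of -5.25 to 26.4 points (limma, adjusted p = 0.533). The rest of its 68616 bp and flanks held 4 loci, none called in more than 2 libraries.

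TFAP2C, which is required for naive enhancers to open in human cells, spans 56629306 to 56639283 on chromosome 20. It had a pair of recurrent loci at its lower-coordinate end. The locus at 56629278, 28 bp outside that end, was called in 5 libraries, at percentiles of 15.6, 44.1 and 69.0 in 3 shHNRNPU libraries and 35.4 and 47.5 with shLUC. In shHNRNPU #2 repeat 1 it was not called, and the nearest summit of that library was 901 bp away. The locus at 56630270, 964 bp inside the gene, had 53.4, 61.1, 46.3 and 68.3 with shHNRNPU and 60.1 and 71.9 with shLUC, and the groups overlapped. Beside it, a locus at 56630642 was called in shLUC repeat 1, at 17.5. In shHNRNPU #2 repeat 2 that locus shared the summit at 68.3 with the one at 56630270.

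ARGFX, a homeobox gene of primates that is active in the early embryo, spans 121567949 to 121590622 on chromosome 3. It had no summit within 2000 bp of either end, and inside the gene only 2 loci, each called in a single library. The strong locus of its window, at 121593510, lay 131 bp inside the neighbouring gene FBXO40, which encodes an F-box protein. Percentiles there were 91.9, 93.6, 94.8 and 94.5 with shHNRNPU and 99.3 and 96.7 with shLUC. All 4 shHNRNPU libraries were lower, with a mean difference of -4.30 points (95% interval -7.13 to -1.48). The unadjusted p was 0.00544 and the adjusted p 0.224 (limma).

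None of the 3 genes of the early embryo and germ line had a start or end that was open in all 6 libraries. DPPA3, also called STELLA, which protects methylation patterns in the zygote, spans 7711433 to 7717559 on chromosome 12. A summit 1748 bp inside it was called only in shHNRNPU #1 repeat 1, at percentile 12.9, and another 5120 bp inside it only in shLUC repeat 2, at 51.4. The locus called in all 6 libraries, at 7694757, lay in the neighbour GDF3, which encodes a TGF-beta family ligand. It had 52.5, 37.7, 57.6 and 73.0 with shHNRNPU and 75.3 and 32.1 with shLUC, so that the shLUC libraries bracketed the others.

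DPPA5, an RNA-binding protein with a KH domain, spans 73353063 to 73354276 on chromosome 6 in a cluster with KHDC3L and OOEP, which are known from oocytes. Its start was closed, but a strong locus lay at 73349511, 3552 bp past the far end of the gene. The percentiles were 86.3, 89.7, 90.2 and 90.9 with shHNRNPU and 90.8 and 97.8 with shLUC. The groups overlapped narrowly, and the difference was -4.98 points (95% interval -9.98 to 0.02, limma adjusted p = 0.35). The loci at the ends of KHDC3L and OOEP were each called in at most 3 libraries, at percentiles of 0.42 to 24.4.

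DNMT3L, a cofactor without catalytic activity of its own that stimulates the DNA methyltransferases DNMT3A and DNMT3B, spans 44246339 to 44261897 on chromosome 21. No locus of its window was called in all 6 libraries. A locus 1455 bp beyond its higher-coordinate end was called in 3 shHNRNPU libraries, at 2.76, 38.4 and 12.1, and in shLUC repeat 1, at 12.5. Its lower-coordinate end was closed throughout.

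SUSD2 spans 24181487 to 24189106 on chromosome 22. The only locus of its window called in more than 2 libraries, at 24189858, lay 752 bp beyond the higher-coordinate end. Percentiles were 46.0, 13.3 and 42.8 in 3 shHNRNPU libraries and 65.9 and 63.3 with shLUC, and shHNRNPU #1 repeat 1 had no call there. With a library without a call ranked lowest, a comparison chosen after the values were seen, all 4 shHNRNPU libraries were lower than both shLUC libraries. Among all loci called in 5 libraries, 12.1% showed that order and 10.4% the opposite one. At the lower-coordinate end a summit was called only in shHNRNPU #1 repeat 2, at percentile 19.3.

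Other gene lists give a measure for these shares. Among 16 other genes listed for the naive state, 11 had a summit at a start or end in all 6 libraries. They were DPPA2, DPPA4, ZFP42, PRDM14, TBX3, NR5A2, ESRRB, KLF2, FGF4, GDF3 and IL6R. KHDC3L had one in 1 library, and ALPP, ALPG, KHDC1L and NLRP7 in none. Whether the listed genes are particular to the naive state cannot be told from these data. ALPP and ALPG are close paralogs, at which read mapping may be uncertain. Their windows each held 2 to 5 summits per library, and whether mapping bears on their closed starts or ends was not tested. The core factors POU5F1, SOX2 and NANOG were open in all 6 libraries, as were 11 of 12 genes of the primed state, with CYTL1 open in 4. Of 8 pluripotent stem cell markers 7 were open throughout and DNMT3B in 5 libraries. Of 10 markers of differentiated cells 9 were open throughout and CDX2 in 5 libraries. Expression of these genes was not measured. Counts of summits separated the groups at none of the 16 naive genes and none of the 12 primed genes. They did so, as at 3.67% of all genes for lower and 3.31% for higher counts, at NANOG, with 2, 2, 1 and 1 summits with shHNRNPU and 4 and 3 with shLUC, and at the stem cell marker SALL4, with 4 in each shHNRNPU library and 3 in each shLUC library.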

How the data were processed

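ATAC-seq summits of 6 libraries were analysed in groups taken from the sample titles. Per the labels, the submitters' processing notes name cutadapt, Bowtie2, SAMtools, MACS2 and deepTools and the build hg38. Versions, options and read filters are not given in the sources used here. The authors deposited 1 summit list per library, called on that library alone, with a score that is the −log10 q-value of the peak. Scores were not normalized between libraries, and the deposited lists carry no read counts, so depth and a limit of detection are unknown. The paper named with the series describes other libraries and guided only the style.

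Positions were counted from 1 and compared with RefSeq GRCh38.p14, whose gene table gives no exons. A start is one listed in the RefSeq promoter table, or both ends of the gene where no start is listed. Percentiles were computed within each list, and loci by taking the best-ranked summit and absorbing those within 250 bp. Loci in all 6 libraries were fitted with limma 3.58.1 in R 4.3.3 (trended empirical Bayes, 4 shHNRNPU against 2 shLUC libraries, Benjamini-Hochberg over all such loci). The fit and the grouping were tested on simulated data. Python 3.11.15, numpy 2.4.6, pandas 2.3.3, scipy 1.17.1 and matplotlib 3.10.9 were used. The members, gene lists and tests were chosen with earlier results of these data known. All members were named, with loci at their ends, the strongest locus of each window, lost and gained loci, and the 3 with the largest difference. Other loci, partly open genes of the lists and the open genes of the other naive list were named after their values were seen. The list symbol TDGF1 is CRIPTO in the table. Other settings tried were a minimum score of 5, equal list sizes, other flanks, match and start distances, log2 scores, a replicate block and leaving out each library.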

Additional observations from a re-analysis of the deposited data

Results flagged for a closer look

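In 4 of 23 measures, 1 of the 4 shHNRNPU libraries stood apart from the other 3. All 4 are summit counts in which the other 3 libraries had the same small number. A step of 1 or 2 summits is then enough. The rule is made for continuous values and flags any such tie, so the number expected by chance is not known. KLF4 had 5 summits in shHNRNPU #1 repeat 2 and 3 in each of the others. DPPA3 had 2 in shHNRNPU #1 repeat 1 and 1 in the others. DPPA5 had 4 in shHNRNPU #2 repeat 1 and 2 in the others. TFAP2C had 2 in shHNRNPU #2 repeat 1 and 3 in the others.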

How the results depend on the processing

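Of 138 recomputed counts and differences, 113 stayed within their spread or within 1.5 times, and of 133 recomputed percentile differences at single loci, 120 kept their sign. These totals include settings that could not move a result here, among them the replicate block for differences and the exact permutation test per locus. Lost and gained loci numbered 0 in the main setting. The gene body alone, the 5 kb flank and a rule asking for no summit within 1000 bp could therefore not change those counts. A member locus passed an adjusted p of 0.05 in none of the fits, where the lowest was 0.099, at the SLC6A9 locus with log2 scores. An exact permutation test per locus could not pass in this design. Markers closed in all libraries numbered 4 at a minimum score of 5, 5 at 500 bp from the start and 0 at 5000 bp, where 7 were open in all. The shares over all genes in these settings were not computed. A flank of 50 kb gave 1 lost and 0 gained loci, 3 loci with higher and 4 with lower percentiles. The gene body alone gave 1 with higher and 1 with lower, and a flank of 5 kb 1 with higher and 2 with lower. The numbers of loci in these windows are not given here, so the counts cannot be read as shares. The flank does not alter the set of all loci, of which 1.93% were lost, 10.9% had higher and 13.9% lower percentiles. A match distance of 100 bp gave 0 with higher, beside 8.68% of all loci, and 1 with lower, beside 17.2%. In these settings the windows or loci are fewer or more by construction. Over all loci, 285 passed with log2 scores and 1 with equal list sizes; the cause was not tested. Differences near 0 changed sign at the downstream KLF5 start (0.12 points at a minimum score of 5, 0.065 with equal list sizes, 0.074 on the log2 scale) and at 73090545 (0.96 and 1.99 points for the first 2 settings).

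Leaving out each library gave 0 to 2 markers with higher and 0 to 2 with lower counts, 0 to 4 lost and 0 to 1 gained loci, 2 to 4 loci with higher and 2 to 5 with lower percentiles, and 0 to 51 of all loci passing, most without shLUC replicate 2. The lone control is then assumed to vary like the other group. The difference ranged from -20.1 to 23.2 points at the GDF3 locus, from -2.13 to 1.88 at the downstream KLF5 start and from -12.6 to 8.76 at 73090545. Repeat numbers did not pair the libraries, as the correlations between groups of the differences between repeats were -0.0438 to 0.00125. With the replicate block 0 member loci passed. The difference in summits stayed 0.75, as repeat numbers are balanced over the groups and the block cannot change it. That difference was within the spread in each setting but had no stable sign, at -1.25 with the gene body alone, -0.25 with a flank of 5 kb, -0.33 without shHNRNPU #1 replicate 2, and from -1.25 without shLUC replicate 2 to 2.75 without shLUC replicate 1.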
